A study of Homo sapiens with 32 samples.

Results

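The m6A erasers and the readers without a YTH domain are 9 human genes: FTO, ALKBH5, IGF2BP1, IGF2BP2, IGF2BP3, FMR1, HNRNPA2B1, HNRNPC and ELAVL1. Their own transcripts were examined for N6-methyladenosine (m6A) in A375, a human melanoma cell line, after knockdown of METTL3. A peak was taken as a member when its summit lay in the RefSeq span of one of these genes on hg38. This held for 203 of the 180114 peaks in 4 peak lists. Of these, 54 and 49 were in the lists of shMETTL3 replicates 1 and 2, and 51 and 49 were in those of shControl replicates 1 and 2. The shMETTL3 libraries are labelled as METTL3 knockdown and the shControl libraries as wild type (WT). All 4 were m6A immunoprecipitations of chromatin-associated RNA that was depleted of ribosomal RNA and received an m6A spike-in before fragmentation. The hairpin sequences and the number of clones are not given in the sources used here, and the labels leave unstated whether replicates came from separate cultures. The spread between them, and any p-value built on it, may thus be technical. The series has 32 samples in 16 groups. Its input libraries, dCas13b-FTO libraries, further METTL3 knockdown set and HEK293T libraries are not analysed here.

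m6A is written onto adenosines of nuclear RNA by a complex whose catalytic subunit is METTL3. The demethylases FTO and ALKBH5 can remove it, and reader proteins bind RNA in a way that depends on it. YTH domain proteins hold the methylated base in a pocket of the domain. The IGF2BP proteins, which bind through KH domains, and FMR1, HNRNPA2B1, HNRNPC and ELAVL1 have been reported to bind methylated transcripts or sites opened by methylation. m6A often lies in a sequence context that contains GGAC.

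Short stretches at 3 gene starts are printed because peaks of all 4 lists, or of both groups, lay on them. The start of IGF2BP3 also had peaks of all 4 lists, but these shared only 5 of its first 50 bases, and it is not printed. The stretches come from RefSeq (GRCh38.p14, the assembly behind hg38), whose promoter table matched 7 of the 9 members. For HNRNPA2B1 and IGF2BP2 the stretch holds the 100 bases before the gene start and the first 30 after it, and capitals mark transcribed bases covered by a peak in each of the 4 lists. For ALKBH5 it holds bases 21 to 50 of the transcript, and capitals mark a GGAC. Each reads 5′ to 3′ on the strand of the gene.
HNRNPA2B1, chr7:26200717-26200846, minus strand: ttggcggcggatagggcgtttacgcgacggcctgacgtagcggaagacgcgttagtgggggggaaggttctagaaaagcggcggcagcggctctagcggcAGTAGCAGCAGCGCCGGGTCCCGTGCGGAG
IGF2BP2, chr3:185825013-185825142, minus strand: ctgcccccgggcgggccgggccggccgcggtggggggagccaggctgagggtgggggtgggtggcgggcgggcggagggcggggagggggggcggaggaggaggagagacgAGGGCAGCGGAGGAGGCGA
ALKBH5, chr17:18183848-18183877, plus strand: gcgctggcGGACgtcgggctggctgcccgt
The HNRNPA2B1 peaks covered all 30 printed transcribed bases, and the IGF2BP2 peaks 19 of 30. Neither stretch holds GGAC in its transcribed part. Of the 7 matched members, 1 (ALKBH5) had GGAC on the transcribed strand within its first 50 bases and 6 had none. The letters GGAC occurred there in 18.9% of 35116 RefSeq start windows, and GGACT in 4.9%. The loci reached past the annotated start, to 26200758 in HNRNPA2B1 and to 185825110 in IGF2BP2, but bases before the start are printed in lower case throughout.

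The 4 lists held 44108 and 42969 peaks in shMETTL3 and 45345 and 47692 in shControl, and covered 17.5 and 17.1 Mb in shMETTL3 against 17.1 and 18.2 Mb in shControl. Median fold enrichment, the peak caller's ratio at the summit as the authors deposited it, was 3.92 and 3.93 in shMETTL3 and 3.84 and 3.65 in shControl. Median peak width was 267 and 268 bp in shMETTL3 and 256 and 259 bp in shControl. Read depth is unknown. The targeted gene METTL3 had 5 peaks in each of the 4 lists; a peak list holds no RNA level, so this does not check the knockdown. Of 7 melanocyte genes only MITF had a peak, in all 4 lists, and PMEL, MLANA and TYR had none in any. Of 5 leukocyte genes none had a peak in any list. KRT10, of 5 keratinocyte genes, had a peak in both shMETTL3 lists and in neither shControl list, and its part in the results was not tested. Of 5 fibroblast genes, PDGFRB had a peak in all 4 lists and LUM in shMETTL3 replicate 2. A marker without a peak may still be expressed.

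The question of the comparison was how m6A peaks on these transcripts differed after METTL3 knockdown. As deposited, the 9 genes together had about as many peaks with the knockdown as without it. With lists of equal length they had 50 and 48 in shMETTL3 and 46 and 45 in shControl, without overlap. With −log10 q of at least 20 they had 34 and 35 in shMETTL3 and 33 and 31 in shControl, also without overlap. With a fold of at least 4 the counts met, at 18 and 15 in shMETTL3 and 15 and 12 in shControl. Single genes differed in opposite directions. FMR1 had peaks in both shMETTL3 lists and none in either shControl list. ELAVL1 also had more peaks in the shMETTL3 lists, while IGF2BP1, IGF2BP3, HNRNPA2B1 and HNRNPC had fewer. Each of these lower counts met or overlapped the shControl counts with −log10 q of at least 20 or with a fold of at least 4. Such separations are common: among genes with at least 8 peaks over the lists, 18.4% had higher and 29.9% lower counts in both shMETTL3 lists. FTO, ALKBH5 and IGF2BP2 had overlapping counts. A different level of an RNA and a different methylation of it cannot be told apart in peak lists.

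On the strand of the gene, the 9 genes held 52 and 48 peaks in shMETTL3 and 51 and 49 in shControl. The means were 50 ± 2.83 in shMETTL3 and 50 ± 1.41 in shControl (SD, n = 2 each; difference 0, two-sided exact permutation p = 1). The smallest p that 2 lists against 2 allow is 0.333, so no count of a gene can pass a threshold, and the counts by gene below are descriptions. Both shMETTL3 counts were above both shControl counts in 2 of the 9 genes (22.2%) and below them in 4 (44.4%). Among the 8553 protein-coding genes with a peak, the same was true of 18.7% above and 24.4% below. Among the 5077 genes with at least 8 peaks over the 4 lists, a number that each member reached and that was chosen after the values were seen, it was true of 18.4% above and 29.9% below.

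**Figure D1:**
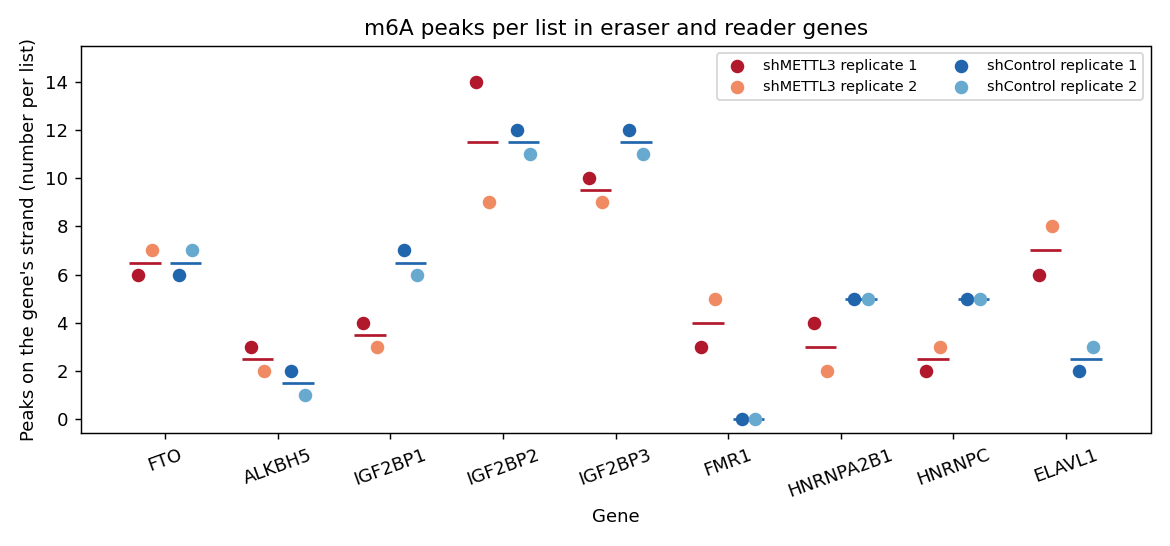
Number of peaks on the gene's strand in each peak list, for each of the 9 genes; points are the individual lists, with the 2 shMETTL3 lists left of the 2 shControl lists. FMR1 sits at 3 and 5 against 0 and 0, ELAVL1 at 6 and 8 against 2 and 3, and IGF2BP1 at 4 and 3 against 7 and 6.

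Same-strand peaks of the 4 lists were joined to a locus where they overlapped by 1 bp or more, which gave 75 loci on the members' strands. A peak was present in all 4 lists at 27 loci (36%), against 36.9% of loci on the strand of protein-coding genes and 35.7% of all loci. A locus is called knockdown-only when both shMETTL3 lists and neither shControl list hold a peak there, and control-only in the opposite case. Knockdown-only loci were 8 of the 37 loci found in both shMETTL3 lists (21.6%), against 17.6% on the strand of protein-coding genes and 18.9% over all loci. Control-only loci were 8 of the 41 found in both shControl lists (19.5%), against 21.3% on the strand of protein-coding genes and 22.6% over all loci. These shares lie near those of other genes. At the remaining 32 loci the replicates of at least one group disagreed: 13 were in 1 shMETTL3 list only and 6 in 1 shControl list only, 6 were in both shControl lists and 1 shMETTL3 list, 2 were in both shMETTL3 lists and 1 shControl list, and 5 were in 1 list of each group. The replicate lists weigh on these counts: without shMETTL3 replicate 1 the knockdown-only count was 16 and the control-only count 13, and without shMETTL3 replicate 2 the knockdown-only count was 14. By gene, leaving out shMETTL3 replicate 1 gave 5 knockdown-only loci in FMR1, 5 in ELAVL1 and 3 control-only loci in HNRNPA2B1. Leaving out shMETTL3 replicate 2 gave 4 loci in all remaining lists in HNRNPA2B1. Leaving out shControl replicate 1 gave 1 knockdown-only locus in HNRNPC, and leaving out shControl replicate 2 gave HNRNPC 2 loci in all remaining lists. Either of these shControl lists left out gave 1 control-only locus in IGF2BP2.

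By role, one-sided loci are given with no test, as few loci stand behind each share, and the shares on the strand of protein-coding genes were 17.6% knockdown-only and 21.3% control-only. The erasers had 14 loci, with 3 of 7 knockdown-only (42.9%) and 1 of 6 control-only (16.7%). The FTO control-only count was 2 in place of 1 without shMETTL3 replicate 1, shControl replicate 1 or shControl replicate 2, and the ALKBH5 knockdown-only count was 2 in place of 1 without shMETTL3 replicate 2. The IGF2BP genes had 35 loci, with 0 of 18 knockdown-only (0%) and 4 of 25 control-only (16%), and 18 of their loci (51.4%) were in all 4 lists. The count of 0 depends on the lists and cuts: IGF2BP2 had 1 knockdown-only locus without shMETTL3 replicate 1 and 3 without replicate 2, IGF2BP3 had 1 in each case, and IGF2BP2 had 1 with −log10 q of at least 20, a fold of at least 4 or a reciprocal overlap of 50%, the last of which also gave IGF2BP3 1. FMR1, HNRNPA2B1, HNRNPC and ELAVL1 together had 26 loci, with 5 of 12 knockdown-only (41.7%) and 3 of 10 control-only (30%), and 5 (19.2%) were in all 4 lists. The knockdown-only loci of these 4 genes were all in FMR1 and ELAVL1, and the control-only loci all in HNRNPA2B1 and HNRNPC. By gene, 3 members had knockdown-only loci and no control-only locus, 4 had the opposite, FTO had both kinds and IGF2BP2 had neither. Over all 8553 protein-coding genes with a peak, 2500 had at least 1 knockdown-only locus, 2909 at least 1 control-only locus and 715 both.

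**Figure D2:**
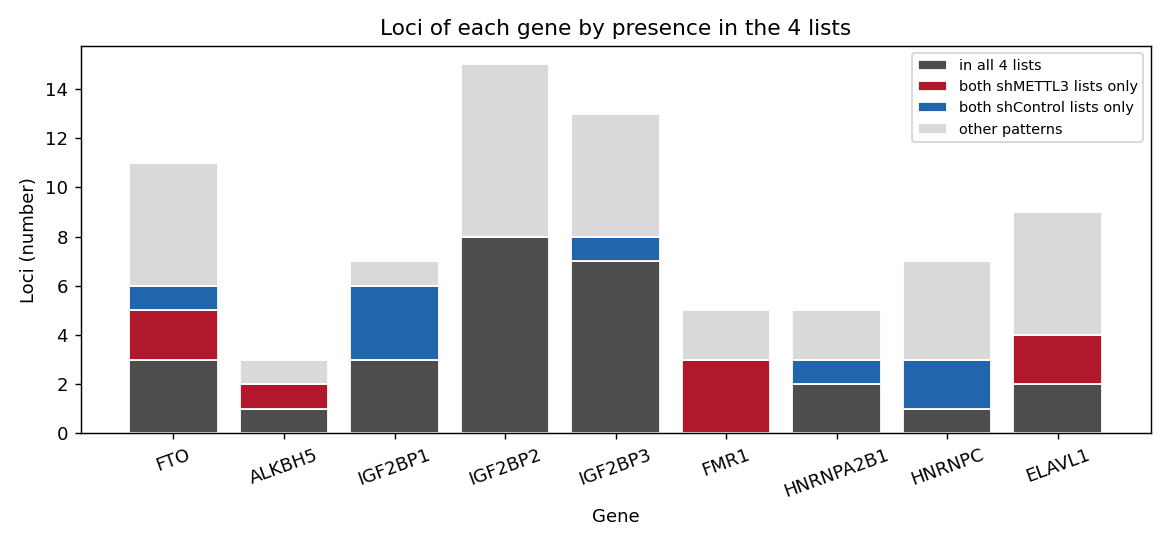
Stacked counts of loci for each of the 9 genes, split into loci in all 4 lists, knockdown-only, control-only and other combinations. IGF2BP2 has 8 loci in all lists and no one-sided locus, while all 5 loci of FMR1 lack a shControl peak.

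FTO, the demethylase of m6A and of m6Am beside the cap, spans 418 kb on chromosome 16. It had 6 and 7 peaks in shMETTL3 and 6 and 7 in shControl, so the groups had the same counts. Its 11 loci comprised 3 in all lists, 2 knockdown-only, 1 control-only and 5 other, all in the interior of the gene. The knockdown-only locus at 53942291 to 53942958 had folds of 4.41 and 3.53 in shMETTL3 replicates 1 and 2, and that at 53831695 to 53831976 had folds of 2.22 and 2.51. The control-only locus at 53996991 to 53997154 had folds of 3.98 and 2.78 in shControl replicates 1 and 2. The summits of these 3 loci lay 238451, 127873 and 293152 bp inside the gene start.

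The shared FTO locus with the highest rank, at 53844019 to 53844244, had folds of 5.95 and 6.49 in shMETTL3 and 5.02 and 4.71 in shControl. Folds are read here as percentiles within their own list, because the lists differ in scale. At this locus the percentiles were 82.9 and 87.2 in shMETTL3 and 75.2 and 74.7 in shControl, without overlap. The second named locus, at 53825762 to 53826464, was 695 and 681 bp wide in shMETTL3 and 703 and 690 bp in shControl, and had folds of 4.72 and 5.14 in shMETTL3 and 4.7 and 3.21 in shControl. Here the percentiles of the groups overlapped. At the shared locus at 54040467 to 54040774 the shMETTL3 replicates disagreed, with percentiles of 5.82 and 87.9, against 92.4 and 83.9 in shControl.

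ALKBH5, the other m6A demethylase, spans 26.1 kb on chromosome 17. It had 3 and 2 peaks in shMETTL3 and 2 and 1 in shControl (difference 1, exact permutation p = 0.667). A locus in the last 2000 bp of the gene, at 18209533 to 18209801 and 283 bp from the annotated end, was knockdown-only with folds of 4.51 and 5.28. It was the highest-ranked eraser locus among the one-sided ones, at percentiles 63.5 and 75.6. The locus at 18183855 to 18184507 reaches close to the gene start, with its summit 573 bp inside it. It was in all 4 lists with folds of 3.04 and 3.62 in shMETTL3 and 5.91 and 3.31 in shControl. Its members are not the same peak, since a peak of 616 bp in shMETTL3 replicate 1 bridges narrower peaks of 188 to 193 bp. With a reciprocal overlap of 50% no ALKBH5 locus was in all 4 lists. The GGAC printed above begins at base 29 of the transcript, position 18183856, inside the peak of shMETTL3 replicate 1.

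**Figure D3:**
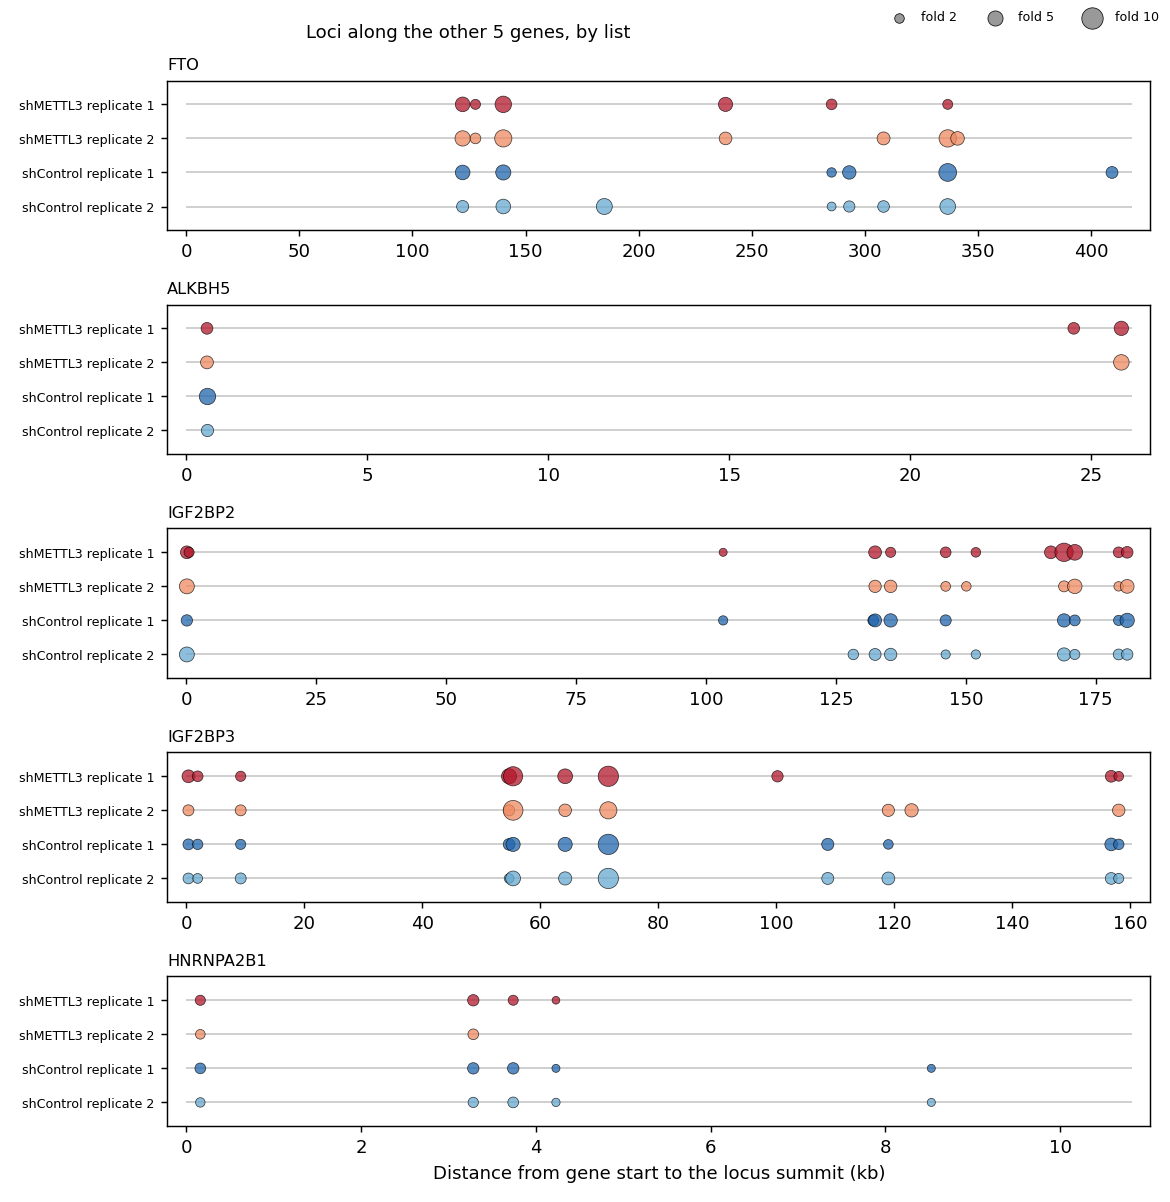
Peaks of FTO, ALKBH5, IGF2BP2, IGF2BP3 and HNRNPA2B1 by distance from the gene start, 1 row per list with the shMETTL3 rows above the shControl rows; each point is a locus present in that list and its area is proportional to the fold. IGF2BP2 and IGF2BP3 have points in every row for 8 and 7 loci, drawn by construction at a common summit position per locus. The ALKBH5 locus near the gene end appears in the shMETTL3 rows only.

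The IGF2BP genes encode related RNA-binding proteins known for stabilizing target transcripts, and IGF2BP1 and IGF2BP3 are known as oncofetal genes. IGF2BP1 on chromosome 17 had 4 and 3 peaks in shMETTL3 and 7 and 6 in shControl. The groups did not overlap, with a difference of -3 (means 3.5 ± 0.707 in shMETTL3 and 6.5 ± 0.707 in shControl, SD, n = 2 each; exact permutation p = 0.333). With a fold of at least 4 the counts were 3 and 1 in shMETTL3 and 3 and 3 in shControl, so that they touched.

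All 3 control-only loci of IGF2BP1 lay within the same 4 kb of its interior. They were at 49036236 to 49036488, with folds of 2.4 and 2.33, at 49036961 to 49037360, with folds of 2.76 and 3.4, and at 49039827 to 49040076, with folds of 3.61 and 5.22 in shControl replicates 1 and 2. The first overlaps RNU6-826P, a U6 pseudogene, and is uncertain because reads may be shared with other U6 copies. Loci in all 4 lists lay between and beside them. That at 49038062 to 49038364 had folds of 2.71 and 2.76 in shMETTL3 and 3.16 and 3.41 in shControl. That at 49041260 to 49041436 had folds of 4.8 and 7.3 in shMETTL3 and 5.48 and 7.37 in shControl, so its groups overlapped. Nearer the gene start, the locus at 48997455 to 48998065 had folds of 4.88 and 3.61 in shMETTL3 and 7.19 and 6.75 in shControl. Its percentiles were 70 and 40.8 in shMETTL3 and 93.5 and 93.4 in shControl, without overlap. IGF2BP1, with only 3 shared loci, thus held 2 of the 5 shared member loci that ranked lower in both shMETTL3 lists. Over all shared loci, 28% ranked lower in this way.

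IGF2BP2, on the minus strand of chromosome 3, was the member with the most loci, 15 over 182 kb. It had 14 and 9 peaks in shMETTL3 and 12 and 11 in shControl, the widest difference between replicates of the 9 genes. Of its loci 8 were in all 4 lists and none on its own strand was one-sided as deposited. The locus at its start, at 185824669 to 185825110, had folds of 3.59 and 4.9 in shMETTL3 and 2.82 and 4.91 in shControl, and covers the capitals printed above. Its peaks were 381 and 378 bp wide in shMETTL3 and 164 and 174 bp in shControl. At these widths an shMETTL3 and an shControl peak cannot reach a reciprocal overlap of 50%. Under that rule IGF2BP2 had 7 loci in all 4 lists, 1 control-only and 1 knockdown-only. The locus at 185692061 to 185692566 had folds of 3.61 and 3.34 in shMETTL3 and 3.7 and 3.12 in shControl, with widths of 506 and 503 bp in shMETTL3 and 336 and 338 bp in shControl. In both loci the widths, each that of the highest-fold peak of a list, did not overlap between groups while the fold percentiles did.

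In the last 2000 bp of IGF2BP2 the locus at 185643162 to 185644626, with widths near 1 kb in each list, had folds of 3 and 4.16 in shMETTL3 and 4.52 and 2.89 in shControl. The locus at 185653993 to 185654633 ranked higher in both shMETTL3 lists, with folds of 5.41 and 4.61 in shMETTL3 and 2.59 and 2.28 in shControl. On the plus strand, opposite to the gene, a locus at 185645455 to 185645632 was knockdown-only with folds of 5.7 and 4.02. It is not counted among the IGF2BP2 loci. The locus at 185721583 to 185721876, in 1 list of each group, overlaps the span of the gene IGF2BP2-AS1 and is uncertain for that reason.

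IGF2BP3, on the minus strand of chromosome 7, had 10 and 9 peaks in shMETTL3 and 12 and 11 in shControl (difference -2; means 9.5 ± 0.707 in shMETTL3 and 11.5 ± 0.707 in shControl, SD, n = 2 each; exact permutation p = 0.333). The counts did not overlap, but with a fold of at least 4 they were 4 and 2 in shMETTL3 and 3 and 2 in shControl, and the difference turned to 0.5. Its control-only locus at 23361576 to 23361856 had folds of 3.24 and 3.16 in shControl. The control-only count of IGF2BP3 was 3 without shMETTL3 replicate 1 and 2 without shMETTL3 replicate 2.

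IGF2BP3 held the shared locus with the highest rank of all members, at 23398102 to 23399192. This stretch of about 1.1 kb had folds of 9 and 6.47 in shMETTL3 and 9.04 and 9.01 in shControl. Its percentiles were 96.9 and 87.1 in shMETTL3 and 98 and 98.8 in shControl, lower in both shMETTL3 lists. The neighbouring long locus at 23414275 to 23415432 differed the other way, with folds of 8.09 and 8.56 in shMETTL3 and 4.4 and 4.81 in shControl. There the percentiles were 95 and 96.1 in shMETTL3 and 64 and 76.2 in shControl. The locus between them, at 23405723 to 23406658, had peaks of 919 and 935 bp in shMETTL3 and of 177 and 435 bp in shControl, with overlapping percentiles. Both directions of difference were found within 20 kb of the same transcript.

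FMR1, the RNA-binding protein whose loss causes fragile X syndrome, spans 39.2 kb on the plus strand of chromosome X. It had 3 and 5 peaks in shMETTL3 and 0 and 0 in shControl (means 4 ± 1.41 in shMETTL3 and 0 ± 0 in shControl, SD, n = 2 each; exact permutation p = 0.333). Of the 7218 protein-coding genes with a peak in both shMETTL3 lists, 481 (6.66%) likewise had none in either shControl list. These 7218 include genes with fewer peaks than FMR1, and the share among genes with as many peaks was not computed. FMR1 had 3 knockdown-only loci, and 329 of the 8553 genes had at least 3.

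The strongest FMR1 locus, at 147912018 to 147912176, lies with its summit 152 bp inside the gene start and had folds of 5.24 and 4.24. Its percentiles were 75.3 and 57.6. The other knockdown-only loci were at 147920690 to 147920961, with folds of 1.81 and 1.63, and at 147943029 to 147943181, with folds of 1.87 and 2.1. Both ranked below the fifth percentile of their lists, so they are among the weakest peaks called. In shMETTL3 replicate 2 alone, peaks were also called at 147944803 to 147944952 (fold 3.8) and at 147948619 to 147948876 (fold 2.03). With −log10 q of at least 20, FMR1 kept 1 and 2 peaks in shMETTL3 and 0 and 0 in shControl, and with a fold of at least 4 it kept 1 and 1 in shMETTL3 and 0 and 0 in shControl.

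ELAVL1, known as HuR, binds AU-rich elements and stabilizes mRNAs. It lies on the minus strand of chromosome 19 and had 6 and 8 peaks in shMETTL3 and 2 and 3 in shControl. This difference of 4.5 was the largest of the 9 genes (means 7 ± 1.41 in shMETTL3 and 2.5 ± 0.707 in shControl, SD, n = 2 each; exact permutation p = 0.333). The counts did not overlap under any of the filters or left-out lists that were tried.

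The ELAVL1 locus at 7982611 to 7982965 had folds of 11.9 and 7.91 in shMETTL3 and 4.86 and 4.16 in shControl. At percentiles 99.6 and 94.2 in shMETTL3 and 72.6 and 64.1 in shControl, it ranked higher in both shMETTL3 lists. Its peaks were 345 and 355 bp wide in shMETTL3 and 161 and 163 bp in shControl. With a reciprocal overlap of 50%, the shMETTL3 and shControl peaks of this locus were no longer joined, and it was not shared. ELAVL1 then had 1 locus in all 4 lists, 1 control-only and 3 knockdown-only. About 8 kb nearer the gene start, the locus at 7990798 to 7991280 was knockdown-only with folds of 8.28 and 6.01, the highest-ranked knockdown-only locus of the members. Next to it, a locus at 7991398 to 7991579 had folds of 7.5 and 8.55 in shMETTL3 and a peak in shControl replicate 2 only, with a fold of 4.98. The remaining knockdown-only locus, at 7963460 to 7963855, had folds of 4.77 and 3.85. The weak locus at 7967650 to 7967896 was in all lists with folds of 2.7 and 2.46 in shMETTL3 and 2.76 and 1.8 in shControl, and its percentiles overlapped.

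**Figure D4:**
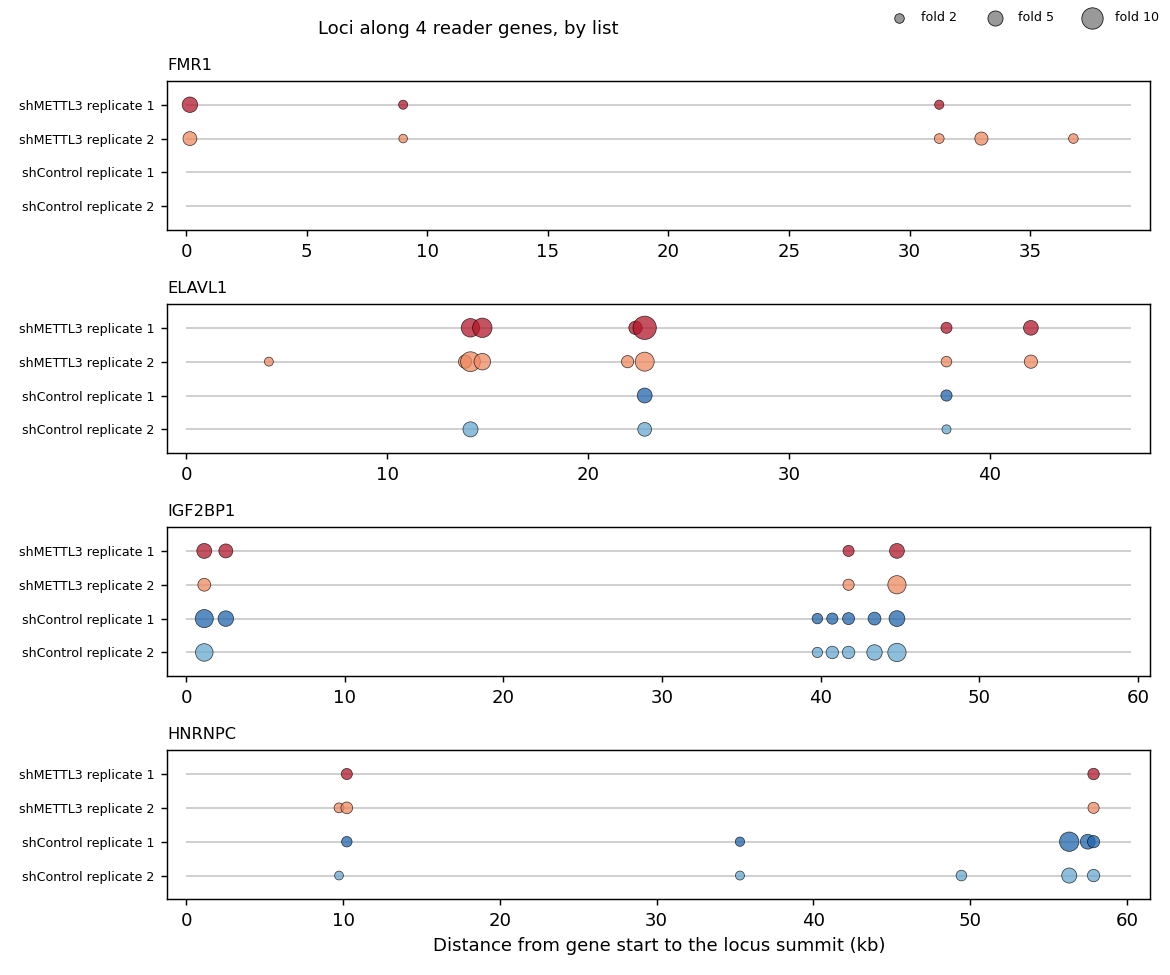
Peaks of FMR1, ELAVL1, IGF2BP1 and HNRNPC by distance from the gene start, 1 row per list with the shMETTL3 rows above the shControl rows; each point is a locus present in that list and its area is proportional to the fold. The shControl rows of FMR1 are empty, and the large points of ELAVL1, with folds of 11.9 and 7.91 at the strongest locus, are in the shMETTL3 rows.

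HNRNPA2B1, a nuclear protein of splicing and microRNA processing, had 4 and 2 peaks in shMETTL3 and 5 and 5 in shControl on the minus strand of chromosome 7 (difference -2; exact permutation p = 0.333). The counts did not overlap as deposited. They met or overlapped with −log10 q of at least 20, at 3 and 2 in shMETTL3 and 3 and 3 in shControl. With lists of equal length they also met, at 3 and 2 in shMETTL3 and 3 and 4 in shControl. All HNRNPA2B1 peaks had low folds, and with a fold of at least 4 none was left in any list. Their −log10 q values were not all low. At the start locus they were 70.6 and 55.4 in shMETTL3 and 72.6 and 41.6 in shControl. At the control-only locus they were 5.63 and 7.33 in shControl. The locus at the gene start, at 26200486 to 26200758, had folds of 2.28 and 2.05 in shMETTL3 and 2.52 and 1.97 in shControl, and the 30 capitals printed above lie under it in each list. The locus at 26197402 to 26197581 had folds of 2.85 and 2.52 in shMETTL3 and 2.85 and 2.34 in shControl. Neither differed in percentile without overlap. The control-only locus, at 26192213 to 26192680, had folds of 1.41 and 1.44 and ranked in the lowest 1% of both shControl lists.

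HNRNPC binds uridine tracts, some of which become accessible when a nearby adenosine is methylated. It had 2 and 3 peaks in shMETTL3 and 5 and 5 in shControl on the minus strand of chromosome 14 (difference -2.5; exact permutation p = 0.333). Values of this gene are uncertain, since the RefSeq table lists 13 genes and pseudogenes named as its copies, with which reads may be shared. The same caution holds for IGF2BP2, IGF2BP3 and FTO, which have 3, 2 and 1 copies so named in that table. The control-only locus at 21213041 to 21213249 had folds of 8.23 and 4.99 in shControl, at percentiles 96.7 and 78.8, the highest-ranked control-only locus of the members. The other, at 21234067 to 21234317, had folds of 1.92 and 1.77. The locus shared by all lists, at 21211504 to 21211692, had folds of 2.88 and 2.74 in shMETTL3 and 3.28 and 3.34 in shControl, and ranked lower in both shMETTL3 lists. With −log10 q of at least 20 the counts overlapped, at 2 and 2 in shMETTL3 and 4 and 2 in shControl.

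Over the 27 loci in all 4 lists, 5 (18.5%) ranked higher in both shMETTL3 lists, against 25.3% of the 23691 such loci over all genes and intergenic sequence. Another 5 (18.5%) ranked lower in both, against 28%, and 17 had overlapping percentiles. The members' shared loci had median folds of 3.59 and 3.41 in shMETTL3 and 3.7 and 3.31 in shControl. All shared loci had higher medians, 4.52 and 4.46 in shMETTL3 and 4.35 and 4.15 in shControl. Shared member peaks were wider in both shMETTL3 lists than in both shControl lists at 12 of 27 loci (44.4%), against 29.3% of all shared loci, and narrower at 2 (7.41%), against 27.1%. Of those 12, 5 were in IGF2BP2 and 4 in IGF2BP3, while FTO had 0 and IGF2BP1 had 0. The width is that of the highest-fold peak of each list at the locus, so a stretch called as several peaks counts by that peak only. How far split calls account for these shares was not tested. The measure was added after the values were seen, and loci of the same gene share a transcript, so the shares are given with no test.

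**Figure D5:**
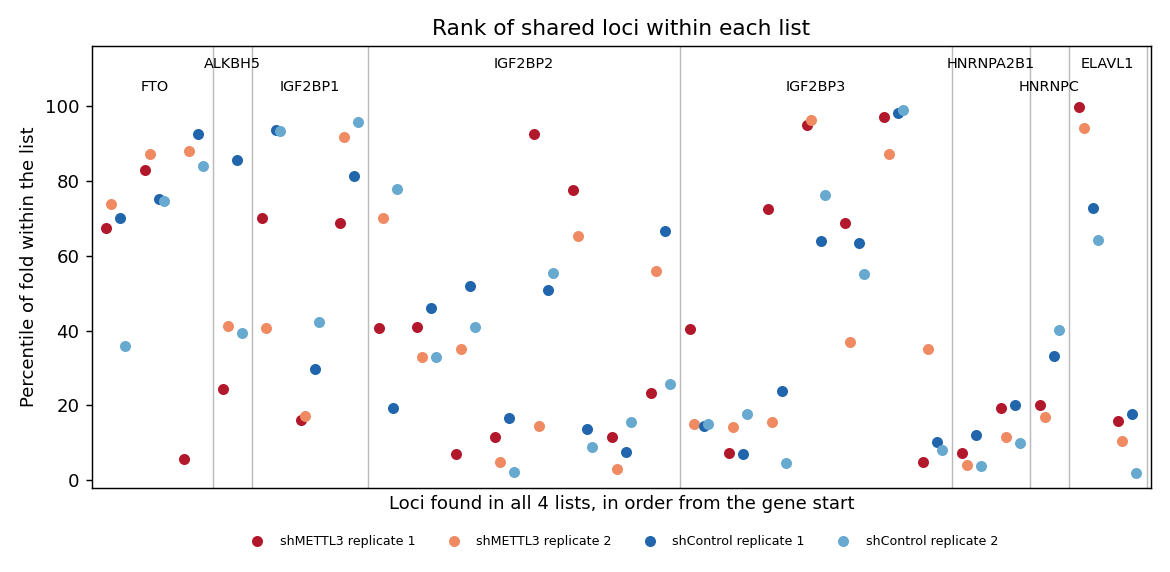
Fold percentile within each list for the 27 member loci present in all 4 lists, grouped by gene, with the shMETTL3 lists marked apart from the shControl lists. The ELAVL1 locus at percentiles 99.6 and 94.2 in shMETTL3 and 72.6 and 64.1 in shControl is one of 5 loci that rank higher in both shMETTL3 lists, and 5 rank lower.

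Most loci of the members lay inside the gene. By summit, 68 of 75 (90.7%) were in the interior, against 83.2% of loci on the strand of a single protein-coding gene. The first 500 bp held 4 (5.33%, against 4.92%) and the last 2000 bp held 3 (4%, against 11.9%). These windows have a fixed length and so make up a smaller part of a longer gene. The members span 10.8 kb (HNRNPA2B1) to 418 kb (FTO). Gene length was not matched, and its part in these shares was not tested. The start loci of IGF2BP2, IGF2BP3 and HNRNPA2B1 were in all 4 lists and that of FMR1 was knockdown-only. Exons and introns were not separated, because no exon annotation was used here.

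The other m6A pathway genes had smaller shares of one-sided loci than the 9 genes, whose shares lay near those of protein-coding genes in general. The 8 writer genes had 42 and 41 peaks on their own strand in shMETTL3 and 45 and 47 in shControl, and 31 of their 54 loci (57.4%) were in all 4 lists. They had 1 knockdown-only locus of 34 (2.94%), in METTL3, and 4 control-only loci of 39 (10.3%), in METTL3, VIRMA and, for 2 of them, ZC3H13. The 5 YTH reader genes had 19 and 19 peaks in shMETTL3 and 21 and 24 in shControl. Their knockdown-only loci were 2 of 16 (12.5%), in YTHDF1 and YTHDC2, and their control-only loci 3 of 18 (16.7%), of which 2 were in YTHDC1 and 1 in YTHDC2. The corresponding shares of the 9 genes were 21.6% and 19.5%, and those on the strand of protein-coding genes were 17.6% and 21.3%. Few loci stand behind each share of the gene lists. The differences between these lists were not tested.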

How the data were processed

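The values are 4 deposited lists of m6A peaks, 1 per library. Per the submitters' processing notes, the tools were MACS2 2.2.7.1, HISAT2 2.1.0, Bowtie2 2.4.2, SAMtools and Trim Galore 0.6.6, on hg38, with no roles or order given. Per the peak names in the deposited lists, calls were made for each strand apart; the names of the knockdown peaks carry a knockout prefix. The fold enrichment of a peak is a ratio that the authors deposited, its p-value and q-value are deposited as −log10 values (lowest −log10 q 2), and the deposited score, which repeats the q-value, was not used. Whether and how the spike-in and input shaped the calls was not given in the sources used here. Folds may therefore be relative to the other RNA of a library, and a change shared by all sites could go unseen.

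Peaks were joined to loci by an overlap of 1 bp on the same strand (Python 3.11.15, pandas 2.3.3, numpy 2.4.6, matplotlib 3.10.9), and the joining was tested on simulated data. The simulated loci lay well apart with at most 1 peak per list, so bridged or split peaks were not covered by that test. The summit of the strongest peak placed a locus in a RefSeq gene span. The fold, percentile, −log10 q and width given for a locus are those of its highest-fold peak in each list. Strands came from the RefSeq promoter table for 7 members and, for IGF2BP1 and ELAVL1, from the strand of at least 80% of their peaks. All 9 members are named, with each one-sided locus and up to 2 loci in all 4 lists per gene ranked by the lowest of their fold percentiles; other shared loci in the text were chosen after their values were seen. The members, lists and cuts were chosen with earlier results of these data known. The alternatives were higher cuts on −log10 q (20) and fold (4), lists of equal length, a reciprocal overlap of 50%, either strand, each list left out, and a replicate block. Replicate deviations with the same number correlated at 0.0311 for peaks per gene and 0.0028 for log2 fold, so the numbers were not taken as pairs.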

Additional observations from a re-analysis of the deposited data

How the results depend on the processing

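Between both groups, the difference in peaks of the 9 genes (shMETTL3 minus shControl, 0 as deposited) was 2.5 with −log10 q of at least 20, 3 with a fold of at least 4 and 3.5 with lists of equal length, and it ranged from -2 to 2 when 1 list was left out. With −log10 q of at least 20 and with lists of equal length, both shMETTL3 counts were above both shControl counts. The exact permutation p was 0.333 in each of these settings, the smallest possible. Pairing the lists by number (replicate block) gave 0 (exact permutation p = 1, where the smallest p for 2 pairs is 0.5); the numbers are shared by label only. Knockdown-only loci (8) were 4 with a fold of at least 4 and 9 to 16 with 1 list left out. Control-only loci (8) were 4 with −log10 q of at least 20, 1 with a fold of at least 4 and 9 to 13 with 1 list left out. Loci in all 4 lists (27) were 16 with −log10 q of at least 20, 5 with a fold of at least 4 and 28 to 33 with 1 list left out. With a fold of at least 4, the difference for IGF2BP3 was 0.5 in place of -2. Fewer peaks under a higher cut, and fewer lists to hold a peak, change these counts by construction; other causes were not tested. Among values of single genes, 259 were classed as kept, 55 moved and 1 turned direction. A locus count was kept when it stayed within 1.5 times. A difference in peaks was kept when it held its sign or stayed within the replicate spread, whatever its size. Kept differences could thus shrink, as for FMR1 from 4 to 1 with a fold of at least 4. The unknown read depth limits each absence of a peak, FMR1 in shControl included, to not called in that list.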
